A study of Mus musculus with 1483 samples.

Results

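The DLX family genes and their non-coding RNAs were described as 6 named genes, Dlx1, Dlx2, Dlx5, Dlx6, Dlx6os1 and Dlx1as, out of 45768 in the expression table, and each of the 6 had its own column. The study sorted single SYFP2-positive cells from the VISp (primary visual cortex) of C57Bl/6J mice, each mouse carrying 1 enhancer that drives the fluorescent protein from an adeno-associated virus, and sequenced polyadenylated RNA of single cells from 33 mice, 32 to 53 cells a mouse, by SMART-Seq v4. The groups were hDLXI56i, eHGT_017h, eHGT_019h, eHGT_023h, eHGT_058h, eHGT_078h, eHGT_079h, eHGT_128h and eHGT_140h with 3 mice each, eHGT_064h with 4 and eHGT_082h with 2. Every group carried a virus and SYFP2, and cells without them were not analysed here. The labels state no age and no virus dose, and an enhancer stands for whichever cells it lights up, not for a defined type. The mouse was the replicate.

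DLX proteins are homeodomain transcription factors that specify GABAergic neurons of the embryonic ventral forebrain and stay on in many adult cortical interneurons. Their genes sit in convergently transcribed pairs that share intergenic enhancers, Dlx1 with Dlx2 and Dlx5 with Dlx6, and the hDLXI56i element comes from the stretch between DLX5 and DLX6. Dlx6os1, also known as Evf2, is a long non-coding RNA that starts in that region and runs antisense to Dlx6, and in embryonic mouse forebrain it has been tied to control of the neighbouring Dlx genes. Dlx1as is transcribed antisense to Dlx1. Among cortical interneurons, Pvalb and Sst cells are mostly born in the medial ganglionic eminence, where Lhx6 marks them, and Vip and Lamp5 cells mostly in the caudal one, where Adarb2 does.

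In the GENCODE M21 annotation of GRCm38, Dlx1 lies on chromosome 2 from 71528113 to 71533981 on the plus strand, inside the span of Dlx1as, 71516454 to 71537891 on the minus strand. Shared bases make up 20.6% of the Dlx1as exons and 6.21% of the Dlx1 exons. The counting is not stated to use strand, so reads in these shared bases cannot be told apart. Dlx2 follows from 71543408 to 71546754 on the minus strand. On chromosome 6, Dlx6os1 spans 6820189 to 6871592 on the minus strand and covers all of Dlx6, 6863334 to 6868568 on the plus strand, with 0 shared exon bases, and Dlx5 lies beside it from 6877805 to 6882085 on the minus strand.

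RefSeq promoter windows of GRCm38.p6, 250 bases before to 50 after a start site, are shown for Dlx6os1 and Dlx1. Dlx6os1 is the member that passed the test in all 4 interneuron classes, although these 4 tests share their values and are not independent. The windows of Dlx6os1 belong to 2 annotated start sites, at chr6:6869484-6869783 and chr6:6861634-6861933 on the minus strand, and that of Dlx1 is chr2:71529195-71529494 on the plus strand. No window shown contains the start of the GENCODE span given above, which is 6871592 for Dlx6os1 and 71528113 for Dlx1. Capitals mark TAATTA, a core sequence bound by many homeodomain proteins, which reads the same on both strands and was the only motif searched.
Dlx6os1 start site 1: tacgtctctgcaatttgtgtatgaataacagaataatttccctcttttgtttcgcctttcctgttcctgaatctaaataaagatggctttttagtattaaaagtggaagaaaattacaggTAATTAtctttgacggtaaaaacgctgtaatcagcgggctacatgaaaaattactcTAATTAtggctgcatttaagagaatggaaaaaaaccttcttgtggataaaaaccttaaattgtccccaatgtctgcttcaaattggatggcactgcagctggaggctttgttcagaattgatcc
Dlx6os1 start site 2: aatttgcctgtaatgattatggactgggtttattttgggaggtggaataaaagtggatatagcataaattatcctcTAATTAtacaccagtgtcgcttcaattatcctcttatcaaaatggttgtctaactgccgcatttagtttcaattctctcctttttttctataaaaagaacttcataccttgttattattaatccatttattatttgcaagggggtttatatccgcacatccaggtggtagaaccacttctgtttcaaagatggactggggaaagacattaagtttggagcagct
Dlx1: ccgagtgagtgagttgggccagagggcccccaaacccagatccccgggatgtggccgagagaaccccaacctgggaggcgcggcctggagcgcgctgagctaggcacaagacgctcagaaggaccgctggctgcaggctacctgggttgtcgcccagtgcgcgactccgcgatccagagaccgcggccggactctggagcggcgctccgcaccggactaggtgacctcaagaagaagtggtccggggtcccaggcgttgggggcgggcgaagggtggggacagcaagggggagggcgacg
The first Dlx6os1 window held 2 matches and the second 1, and the Dlx1 and Dlx2 windows held 0. Of 32851 promoter windows of the same length, 5.29% held the motif. GC content was 35.7% and 35.3% in the Dlx6os1 windows, 69.3% in that of Dlx1 and 66.3% in that of Dlx2, and its median over all windows was 52.7%. A match describes letters in a window and says nothing about binding.

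Cells were read as GABAergic when Gad1 or Gad2, the GABA-synthesising enzymes, reached 10 CPM (a gene's reads scaled to a total of 1000000 in each cell) and Slc17a7, the vesicular glutamate transporter, did not, and as glutamatergic in the reverse case. This gave 1125 GABAergic cells, 75.86% of all, a further 18.75% that were glutamatergic, 79 cells with both signals and 1 with neither. Median depth was 586931 reads in GABAergic cells and 587408 in glutamatergic cells. One library stood apart. A cell of eHGT_019h replicate 2 had 833 reads in all, 29 of them from Dlx1as, so that it carried 34814 CPM of that RNA, and it belonged to neither transmitter group. It raised that mouse's mean over all cells to 1126 CPM of Dlx1as, against 135.5 CPM without it, and both values are given where it matters. The cells shared no identical profile.

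Glutamatergic cells held almost no DLX reads, and every GABAergic cell held some. Of all glutamatergic cells, 0 had 10 CPM or more of any of the 6 genes, which allows a share of up to 1.08% if cells are counted as independent, although nearly all came from the mice of 3 enhancers, and the only reads were 3 of Dlx1 in 2 cells. Each of the 1125 GABAergic cells had at least 1 member at 10 CPM or more, 43.5% of them had 5 and 18.04% had all 6. Dlx5 reached that level in 93.9% of GABAergic cells, Dlx1as in 93.2%, Dlx6os1 in 90.5%, Dlx1 in 84.1%, Dlx2 in 69.7% and Dlx6 in 35.1%. Thinned to 100000 reads per cell, at least 1 read of Dlx6 remained in 48.0% of GABAergic cells, against 77.96% at full depth. The share for Dlx6 thus moved with depth, whereas Dlx5 had a read in 93.01% of thinned and 96.9% of unthinned GABAergic cells.

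In 6 mice, 3 of eHGT_023h and 3 of eHGT_058h, both kinds of cell could be compared within the mouse. Dlx6os1 averaged 58.5, 74.98 and 59.8 CPM in GABAergic cells of the eHGT_023h mice and 315.02, 138.6 and 158.4 CPM in those of the eHGT_058h mice, and it was at 0 in glutamatergic cells of all 6. Dlx5, a transcription factor gene of the same cluster, had 53.1 to 88.2 CPM in GABAergic cells of these mice and 0 in glutamatergic cells. No pair of values overlapped for any member. All 6 members were higher in GABAergic cells by limma (adjusted p from 1.41e-07 for Dlx1as to 3.65e-05 for Dlx6), beside 12.1% of 17365 genes that were higher. The fitted differences ran from 3.18 for Dlx6 to 6.80 for Dlx6os1 on the log2(CPM + 1) scale, but against values at 0 they depend on the added 1. Over the pooled reads, and with 3 reads over the glutamatergic group as the floor, Dlx6os1 was at least 2730-fold higher in GABAergic cells, Dlx1as at least 2270-fold, Dlx5 at least 1750-fold and Dlx2 at least 678-fold. Dlx6, with the fewest reads, stood at 7.36 CPM in GABAergic cells, against 0 reads in glutamatergic cells. Dlx1, with 2724 reads in the GABAergic cells and 1 in the glutamatergic cells, had a ratio of 2890 with a 95% counting interval of 518 to 114000. Reads are not independent molecules, so bounds and intervals cover counting error alone. Gad1 and Gad2 set the groups, so their difference is no result.

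GABAergic cells were next read by 4 class markers, taking cells with exactly 1 of Vip, Lamp5, Sst and Pvalb at 100 CPM or more: 50 Vip cells (4.44% of GABAergic cells), 13.69% Lamp5 cells, 19.02% Sst cells and 575 Pvalb cells (51.11%), with 9.87% carrying several markers and 1.87% none. Mice with at least 5 cells of a class entered, 4 for Vip, 7 for Lamp5, 12 for Sst and 21 for Pvalb. Among the mouse means of these 4 classes, Dlx6os1 divided Vip and Lamp5 cells from Sst and Pvalb cells. Dlx1 and Dlx2 were highest in Vip cells, Dlx1as was highest in Lamp5 cells, and the mouse ranges of Dlx5 overlapped in all 4. Cells with no marker were not tested as a class. The 1 mouse with at least 5 of them had 254.31 CPM of Dlx1 and 87.56 CPM of Dlx2. Over all cells with no marker, the median of Dlx1 was 60.79 CPM, against 142.896 CPM over Vip cells.

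**Figure D1:**
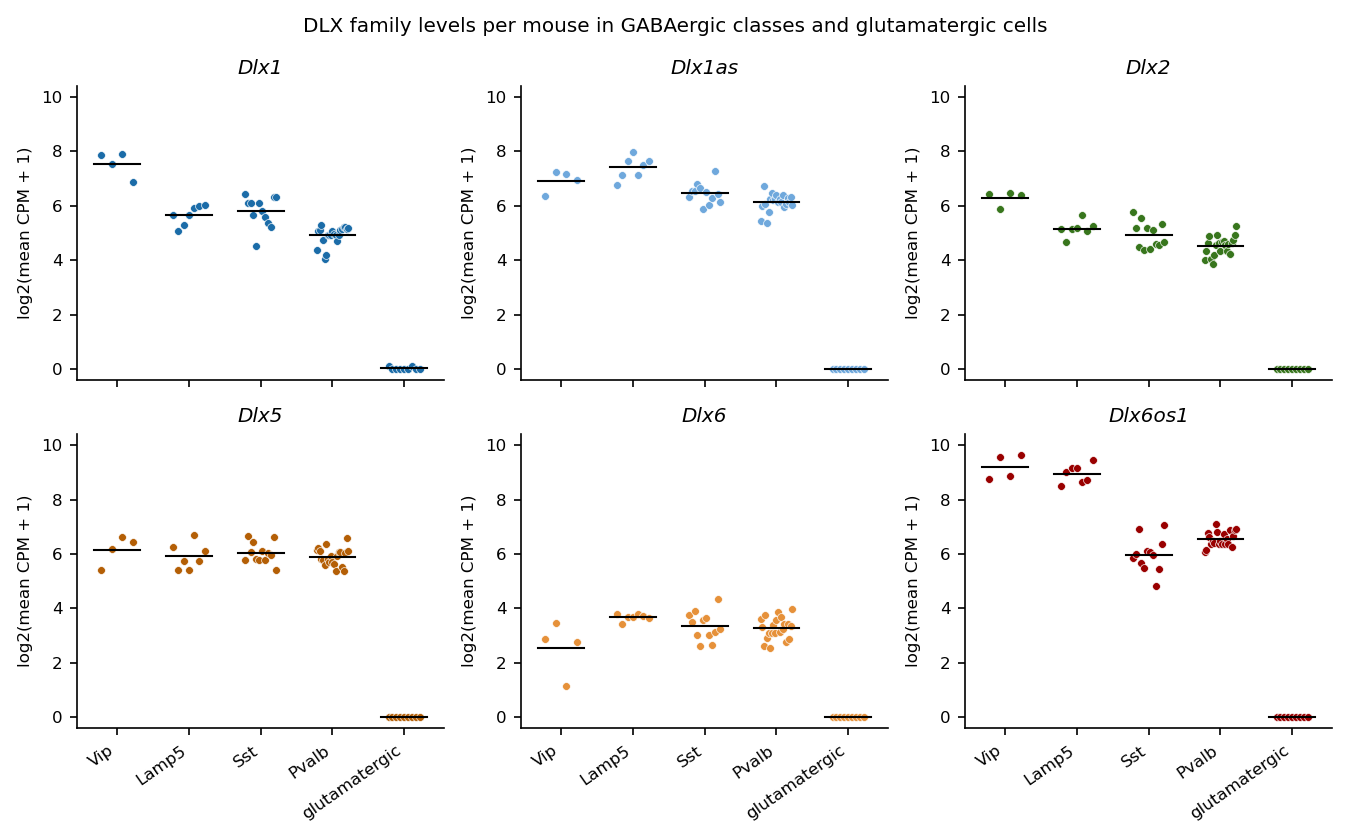
Mean level per mouse, as log2(mean CPM + 1), of each member in Vip, Lamp5, Sst, Pvalb and glutamatergic cells. Each point is 1 mouse with at least 5 cells of that kind, and the line is the mean over mice. The Dlx6os1 points of Vip and Lamp5 cells lie apart from those of Sst and Pvalb cells, whereas the Dlx5 points of the 4 classes lie in 1 band.

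In Vip cells of the 4 mice, Dlx6os1 had 433.9 and 755.8 CPM for eHGT_017h replicates 1 and 3, 469.3 CPM for eHGT_019h replicate 3 and 792.6 CPM for hDLXI56i replicate 3. Its range was 361.8 to 701.9 CPM in Lamp5 cells, with a median of 518.9, 27.4 to 131.6 in Sst cells, with a median of 62.4, and 66.9 to 136.8 in Pvalb cells, with a median of 88.3. The lowest Lamp5 mouse was above the highest Sst and Pvalb mice, so the ranges of these pairs of classes did not overlap, while Vip and Lamp5 cells overlapped, and Sst and Pvalb cells did too. Every Vip and every Lamp5 cell had 10 CPM or more, against 93.04% of Pvalb cells and 77.6% of Sst cells. Per kilobase of annotated exon, Dlx6os1 in Vip cells stood at 117.5 CPM and in Sst cells at 13.02 CPM.

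Dlx1, whose loss in mice leads to the death of a subset of cortical interneurons after birth, had 233.7, 182.4, 241.2 and 117.1 CPM in the Vip cells of the same 4 mice. The range was 32.8 to 64.3 CPM in Lamp5 cells, 21.98 to 85.1 in Sst cells and 15.6 to 38.5 in Pvalb cells. All Vip values lay above all values of Lamp5, Sst and Pvalb cells, and Lamp5 cells overlapped with Sst and Pvalb cells. Dlx2, which is paired with Dlx1 and acts with it in the embryonic progenitors, had 84.9, 58.4, 87.2 and 82.6 CPM in these Vip cells, against at most 49.9 CPM in Lamp5 cells, 53.998 in Sst cells and 37.4 in Pvalb cells. Again no mouse of another class reached the lowest Vip value.

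The antisense RNA Dlx1as ranged from 108.96 to 250.9 CPM in Lamp5 cells with a median of 181.2, from 80.2 to 150.8 in Vip cells, from 58.3 to 155.5 in Sst cells and from 40.2 to 106.2 in Pvalb cells. Lamp5 and Pvalb cells did not overlap, and the other neighbours did. Dlx1 was on average 51.1 ± 12.2 CPM in Lamp5 cells (SD, n = 7) and 58.1 ± 19.5 in Sst cells (SD, n = 12). No difference between these genes over the classes was tested.

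Dlx5 and Dlx6, the pair next to the source of hDLXI56i, passed the test in none of the 4 classes. Dlx5 averaged 73.8 ± 23.8 CPM in Vip cells (SD, n = 4), 66.96 ± 18.8 in Sst cells (SD, n = 12), 62.2 ± 22.1 in Lamp5 cells (SD, n = 7) and 60.2 ± 13.7 in Pvalb cells (SD, n = 21), and all 4 ranges overlapped. Dlx6 was the lowest member, at 11.8 ± 1.07 CPM in Lamp5 cells, 9.96 ± 4.09 in Sst cells, 9.02 ± 2.70 in Pvalb cells and 5.87 ± 3.67 in Vip cells. The Dlx6 difference of a class from the mean of the other 3 was -1.14 in Vip cells and 0.91 in Lamp5 cells (95% interval 0.19 to 1.62, adjusted p = 0.0872 by limma). Its median cell had 3.03 to 7.28 CPM in these classes, a few reads at this depth. Per kilobase of exon over all GABAergic cells, Dlx1as stood at 59.4 CPM, Dlx6os1 at 33.7, Dlx5 at 27.6, Dlx2 at 10.6, Dlx1 at 9.30 and Dlx6 at 3.85.

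The classes were tested with limma on log2(mean CPM + 1) per mouse and class, with the mouse as a block, in 13 mice that had at least 2 classes. Some pairs of classes met in few mice: Vip and Pvalb cells in 1, Vip and Lamp5 cells in 2, and Sst and Lamp5 cells in 2. For these pairs the fit leans on mice that link them through other classes. Each difference below is 1 class minus the mean of the other 3, with its standard error, and p-values were adjusted over 19025 genes. In Vip cells 3 members were higher, beside 4.88% of all genes: Dlx1 by 1.75 ± 0.275 (adjusted p = 2.32e-04), Dlx6os1 by 1.63 ± 0.194 (adjusted p = 1.04e-05) and Dlx2 by 1.25 ± 0.257 (adjusted p = 2.43e-03). The median over all genes was -0.15 in this contrast, and the contrasts of the other classes had medians between -0.02 and 0.08. Dlx6 missed the threshold there with a difference of -1.14 (95% interval -1.95 to -0.33, adjusted p = 0.0574) and passed it with classes set by the highest marker (adjusted p = 0.0193) or at 300 CPM (adjusted p = 0.048).

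In Lamp5 cells, 2 members were higher, beside 8.39% of all genes. These were Dlx6os1, by 1.61 ± 0.171 (adjusted p = 1.35e-06), and Dlx1as, by 0.94 ± 0.173 (adjusted p = 7.42e-04). Pvalb cells had 4 lower members, beside 7.61% of all genes: Dlx1 by -1.19 ± 0.196 (adjusted p = 1.52e-04), Dlx6os1 by -1.18 ± 0.138 (adjusted p = 2.62e-06), Dlx1as by -0.85 ± 0.140 (adjusted p = 1.46e-04) and Dlx2 by -0.73 ± 0.183 (adjusted p = 7.71e-03). Both Dlx1as (-0.60, adjusted p = 0.107) and Dlx2 (-0.78, adjusted p = 0.0508) lost the Pvalb call when logs were averaged over cells. Sst cells had 1, Dlx6os1, lower by -2.05 ± 0.135 (adjusted p = 2.10e-09), beside 6.16% of all genes. Neither Dlx5 nor Dlx6 passed in any class, and the 95% intervals of Dlx5 lay between -0.78 and 0.81. Dlx6 passed in Vip cells without hDLXI56i replicate 2 (-1.17, adjusted p = 0.0418), and Dlx1as in Sst cells without eHGT_064h replicate 2 (-0.40, adjusted p = 0.0481). None of these 10 calls was lost when any 1 of the 13 mice was left out, and the Dlx6os1 difference then stayed between -2.12 and -1.98 in Sst cells. With at least 10 cells per value, where 1 Vip mouse remains, Dlx2 (1.51, adjusted p = 0.175) and Dlx6os1 (1.55, adjusted p = 0.0578) lost the call in Vip cells and Dlx1as (0.92, adjusted p = 0.076) in Lamp5 cells.

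**Figure D2:**
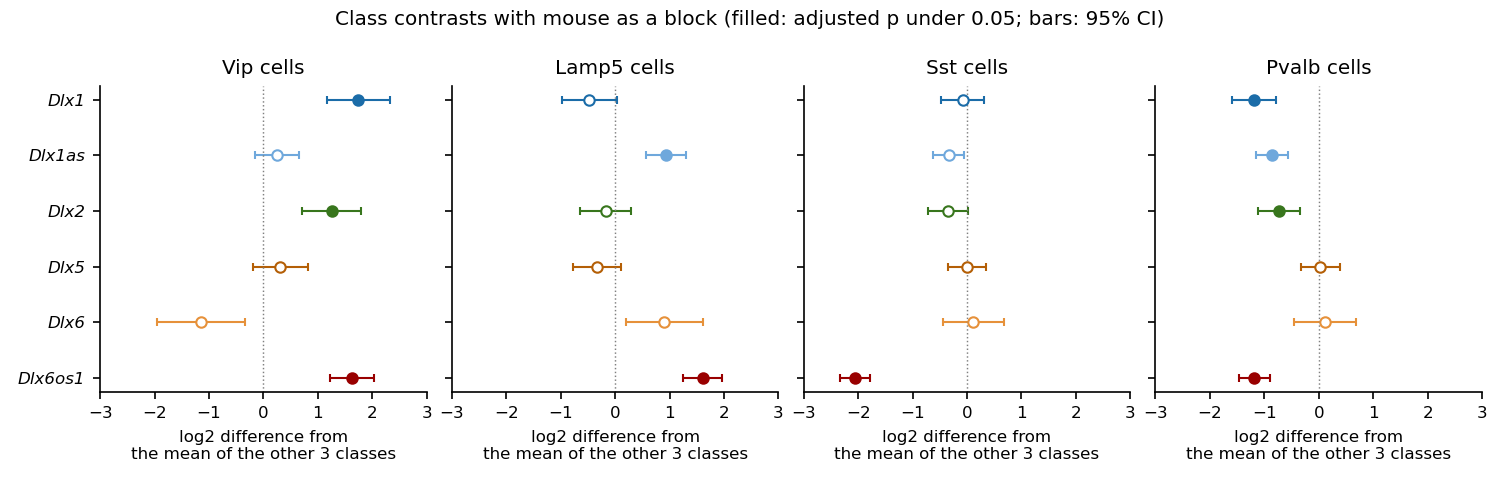
Log2 difference of each member between 1 class and the mean of the other 3, with 95% confidence intervals, from the fit over 13 mice. Filled points passed an adjusted p of 0.05. Dlx6os1 is filled in all 4 panels, and Dlx5 and Dlx6 in none. Every class enters all 4 panels, so the 4 differences of a gene are tied.

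Oligodendrocyte signal was highest in Vip cells. The summed level of 4 oligodendrocyte markers averaged 119.8 CPM in Vip cells, 1.203 in Lamp5 cells, 46.7 in Sst cells and 0.448 in Pvalb cells, and the median of each marker over cells was 0. The 4 astrocyte markers summed to 15.1 CPM in Vip cells, 17.3 in Lamp5 cells, 3.62 in Sst cells and 2.05 in Pvalb cells. Their part in the differences was not tested.

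Pairs of classes could also be set side by side within a mouse. Dlx6os1 was higher in Vip than in Sst cells of 3 of 3 mice, by 2.58 to 2.92 on the log2 scale, and lower in Pvalb than in Lamp5 cells of 4 of 4 mice, by a median log2 difference of -2.18. Sst and Pvalb cells differed less. Dlx1 was higher in Sst cells of 7 of 8 mice, at a mean of 53.3 CPM in Sst cells and 28.7 CPM in Pvalb cells, and Dlx6os1 was lower in Sst cells of 7 of the 8, at 65.4 CPM in Sst cells and 96.1 CPM in Pvalb cells. These pairs are descriptions of the values that entered the fit.

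The split by Lhx6 and Adarb2, which does not use the class markers, placed 895 GABAergic cells with Lhx6 alone and 18.84% of them with Adarb2 alone. Both were present in at least 5 cells in 7 mice, 3 of eHGT_017h, 3 of hDLXI56i and 1 of eHGT_058h. Dlx6os1 in Lhx6 cells was 82.2, 63.5 and 121.6 CPM in the eHGT_017h mice, 98.6 CPM in the eHGT_058h mouse and 97.5, 95.5 and 136.7 CPM in the hDLXI56i mice. In Adarb2 cells it was 414.97, 845.9 and 761.2 CPM in the eHGT_017h mice, 567.5 CPM in the eHGT_058h mouse and 408.02, 427.1 and 743.02 CPM in the hDLXI56i mice. The lowest Adarb2 value was above every Lhx6 value. Dlx1 in Lhx6 cells was 82.6, 67.2 and 68.4 CPM in the eHGT_017h mice and 46.3, 46.3 and 62.6 CPM in the hDLXI56i mice, against 237.6, 265.4 and 179.9 CPM in Adarb2 cells of the eHGT_017h mice and 62.7, 80.1 and 79.9 CPM in those of the hDLXI56i mice. The eHGT_058h mouse had 41.2 CPM of Dlx1 in Lhx6 cells and 50.2 CPM in Adarb2 cells. The gap was thus wide in eHGT_017h mice, among whose GABAergic cells were 26 Vip and 3 Lamp5 cells, and small in hDLXI56i mice, with 8 Vip and 53 Lamp5 cells. Whether the gap differs between these enhancers was not tested.

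**Figure D3:**
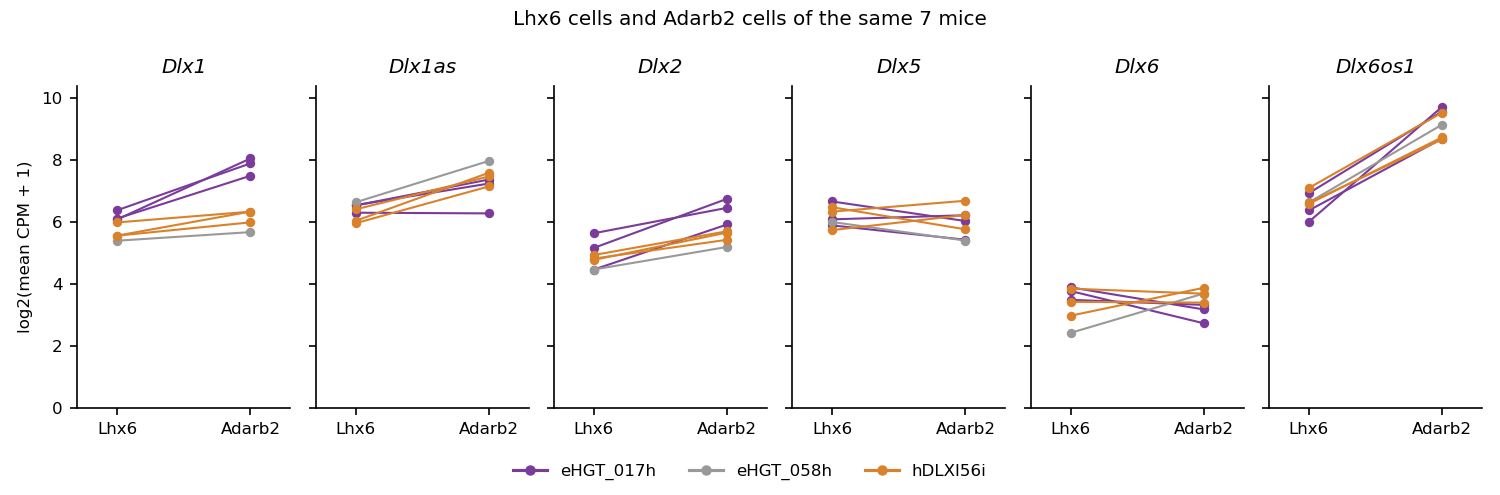
Level of each member in Lhx6 cells (left) and Adarb2 cells (right) of 7 mice, as log2(mean CPM + 1). Each line is 1 mouse, coloured by its enhancer. All 7 Dlx6os1 lines are steep in the same direction, and the Dlx5 and Dlx6 lines cross.

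By limma with the mouse as a block, 4 of the 6 members were lower in Lhx6 cells, beside 4.53% of 17387 genes. The log2 difference, Lhx6 minus Adarb2, was -2.55 ± 0.169 for Dlx6os1 (adjusted p = 3.34e-06), -0.98 ± 0.185 for Dlx2 (adjusted p = 5.35e-03), -0.96 ± 0.213 for Dlx1 (adjusted p = 0.0136) and -0.95 ± 0.172 for Dlx1as (adjusted p = 4.02e-03). Dlx5 differed by 0.21 (95% interval -0.20 to 0.61, adjusted p = 0.554) and Dlx6 by -0.01 (95% interval -0.79 to 0.77, adjusted p = 0.992). No call was lost without any 1 mouse, and the Dlx6os1 difference then lay between -2.63 and -2.35. Dlx1 lost its call with at least 10 cells per value (-0.73, adjusted p = 0.0772) and without the block (adjusted p = 0.0958), and Dlx2 when logs were averaged over cells (-0.99, adjusted p = 0.0824).

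The members could be set against each other within the same 7 mice, by taking the Lhx6 minus Adarb2 difference of 1 gene from that of another. This was chosen after the values were seen. In exact 2-sided sign-flip permutation tests over 15 pairs, with n = 7 mice and 0.0156 as the smallest p the design allows, Dlx6os1 reached that p against each of the other 5 members, with the same sign in 7 of 7 mice and an adjusted p of 0.0293. Its difference was larger than that of Dlx1 by 1.59 on the log2 scale and than that of Dlx5 by 2.75. Dlx1as and Dlx2 likewise parted from Dlx5, and Dlx1as from Dlx6, at the same exact p of 0.0156. Dlx5 and Dlx6 could not be told apart (difference 0.21, SD 0.942, exact p = 0.625), nor could Dlx1 and Dlx1as (difference -0.01, SD 1.11, exact p = 1), though their wide SDs limit both.

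The study's own grouping is the enhancer. Within GABAergic cells, 10 enhancers had at least 2 mice with 5 such cells, 30 mice in all, and eHGT_078h had only 2 GABAergic cells among 140. Dlx6os1 had 251.1, 234.8 and 410.6 CPM in hDLXI56i mice and 165.4, 208.4 and 480.4 CPM in eHGT_017h mice. It had 363.3, 497.6 and 500.6 CPM in eHGT_019h mice and 315.02, 138.6 and 158.4 CPM in eHGT_058h mice. In the 18 mice of the other 6 enhancers it ran from 55.8 to 121.97 CPM, below the lowest of those 12 mice. The share of GABAergic cells that were Adarb2 cells was 45.3% for hDLXI56i, 35.6% for eHGT_017h, 89.9% for eHGT_019h and 42.3% for eHGT_058h, and at most 4.55% for the 6 others. High Dlx6os1 went with high Adarb2 shares across enhancers, and the part of these shares in the enhancer differences was not tested.

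**Figure D4:**
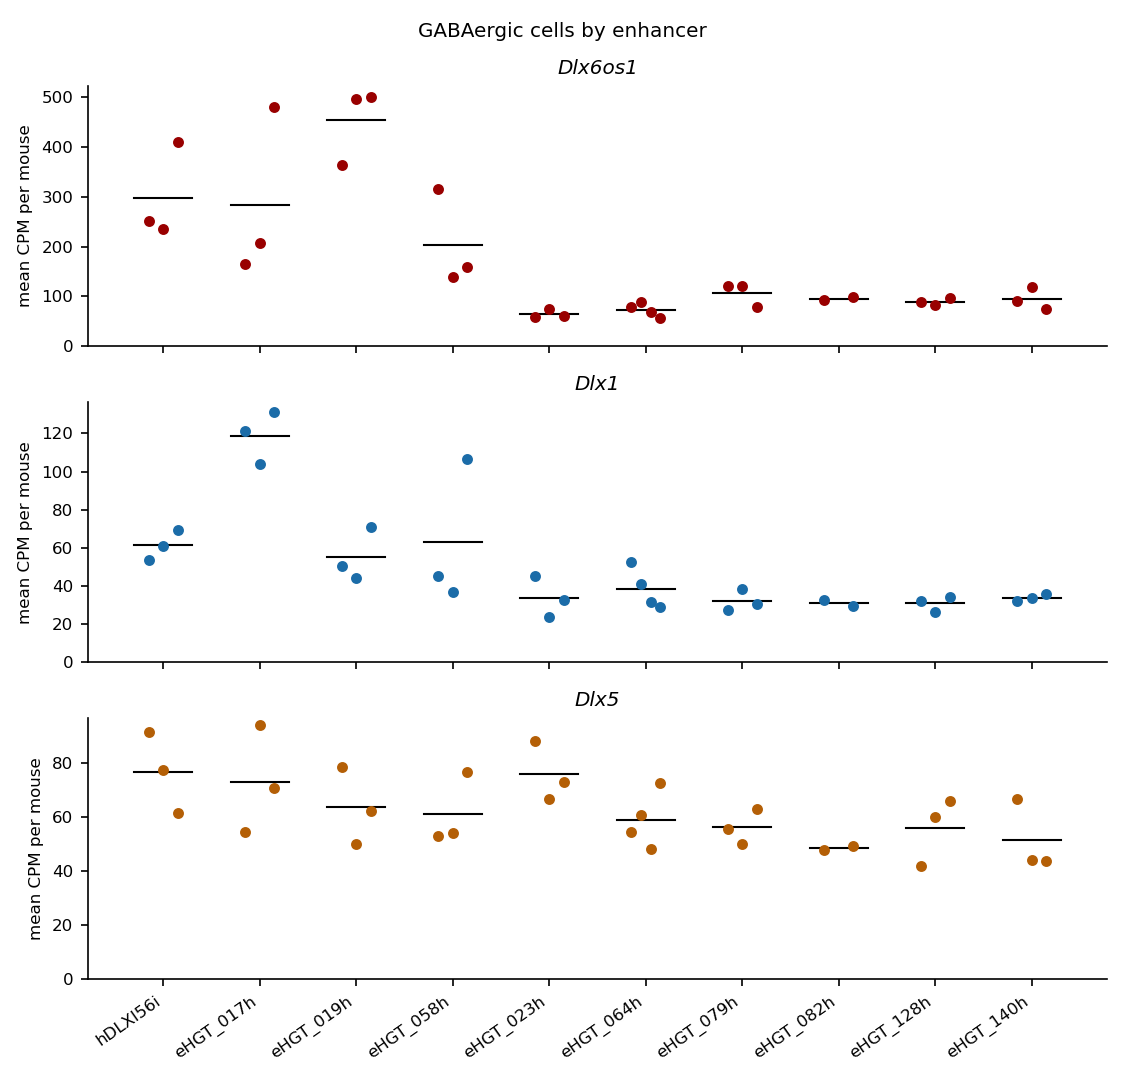
Mean CPM per mouse of Dlx6os1, Dlx1 and Dlx5 in GABAergic cells, by enhancer. Points are mice and lines are means. Dlx6os1 is high for the 4 enhancers on the left, Dlx1 lies at 103.9 to 130.9 CPM in the 3 eHGT_017h mice and reaches 106.8 CPM in 1 eHGT_058h mouse, and Dlx5 spreads over one range for all 10.

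Each enhancer was tested against the mean of the other 9 by limma over 18142 genes. For hDLXI56i, 1 member was higher, Dlx6os1 by 1.18 ± 0.227 on the log2 scale (adjusted p = 1.53e-03), beside 5.70% of all genes. The 5 other members had positive differences of 0.24 to 0.51 that did not pass (adjusted p from 0.137 to 0.515). eHGT_017h had 3 higher members, beside 8.16% of all genes: Dlx1 by 1.55 ± 0.211 (adjusted p = 2.41e-05), Dlx6os1 by 0.98 ± 0.227 (adjusted p = 4.21e-03) and Dlx2 by 0.84 ± 0.199 (adjusted p = 5.04e-03). The Dlx6os1 call rested on replicate 3, without which it was 0.53 (adjusted p = 0.187), and that of Dlx2 was lost without replicate 1 (0.72, adjusted p = 0.0644). With logs averaged over cells neither passed, at 0.29 for Dlx6os1 (adjusted p = 0.646) and 0.67 for Dlx2 (adjusted p = 0.105).

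eHGT_019h had 2 higher members, beside 14.8% of all genes, Dlx6os1 by 1.89 ± 0.227 (adjusted p = 5.12e-07) and Dlx1as by 0.66 ± 0.154 (adjusted p = 2.10e-03), the second lost without replicate 3 (0.49, adjusted p = 0.0507). Dlx6os1 was lower in eHGT_064h by -1.03 ± 0.201 (adjusted p = 7.34e-03), beside 0.717% of all genes that were lower, and in eHGT_023h by -1.21 ± 0.227 (adjusted p = 9.59e-03), beside 0.695%. Those calls were lost without replicate 3 (-1.01, adjusted p = 0.0531) or 4 (-0.92, adjusted p = 0.0734) of eHGT_064h and without replicate 3 of eHGT_023h (-1.17, adjusted p = 0.0718). With logs averaged over cells both were lost, at -0.98 for eHGT_064h (adjusted p = 0.141) and -1.22 for eHGT_023h (adjusted p = 0.0738). All 3 eHGT_023h mice have the library prefix letter J, which only 6 of the other mice have, and with the letter as a covariate that difference was -0.82 (adjusted p = 0.381). In the 5 remaining enhancers no member passed by limma on log2(mean CPM + 1), beside 13.8% of genes called in either direction for eHGT_058h, 0.0937% for eHGT_079h, 1.01% for eHGT_082h, 1.96% for eHGT_128h and 3.75% for eHGT_140h. Other settings called single members there: limma voom Dlx1as for eHGT_140h (-0.51, adjusted p = 0.0377), averaged logs Dlx2 for eHGT_058h (0.94, adjusted p = 0.0209) and the letter covariate Dlx6os1 for eHGT_128h (-0.82, adjusted p = 0.0488). Dlx5 and Dlx6 passed for none of the 10 in the fit on mean CPM. Some further calls appeared when 1 mouse was left out: Dlx1 for hDLXI56i without eHGT_058h replicate 3 (0.56, adjusted p = 0.0337), Dlx6os1 for eHGT_058h without eHGT_017h replicate 3 (0.57, adjusted p = 0.0462), and Dlx1as for eHGT_140h without any 1 of 6 mice of eHGT_017h, eHGT_019h, eHGT_023h and eHGT_058h (-0.53 to -0.48). Ordered by mean level, neighbouring enhancers had overlapping mouse ranges in 9 of 9 pairs for each of Dlx5, Dlx6, Dlx1 and Dlx1as and in 8 of 9 for Dlx2 and Dlx6os1.

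Over all cells of a mouse, the levels also carry the share of cells that were GABAergic, which was 97.9% for hDLXI56i, 88.1% for eHGT_017h, 77.3% for eHGT_019h, 21.7% for eHGT_058h and 1.43% for eHGT_078h. Fewer DLX-expressing cells and less RNA per cell cannot be told apart in such means. In eHGT_078h mice all 6 members were lower, by -3.02 for Dlx6 to -6.35 for Dlx6os1, beside 14.4% of 18932 genes, and in eHGT_058h mice all 6 were lower, by -1.001 for Dlx6os1 to -1.51 for Dlx5, beside 13.1%. Higher members numbered 5 for hDLXI56i, beside 6.71% of genes, 5 for eHGT_017h, beside 8.01%, 6 for eHGT_019h, beside 14.2%, and 1 for eHGT_064h, beside 2.89%. The member not called for hDLXI56i and eHGT_017h was Dlx1as. Dlx6os1 was higher by 2.10 ± 0.308 in hDLXI56i (adjusted p = 7.22e-05). For every other enhancer, the mean it is set against includes eHGT_078h, which had the lowest Dlx6os1 level, 0.451 CPM. The part of eHGT_078h in these differences was not tested. Median differences over members were 0.37 for eHGT_064h, 0.506 for eHGT_079h, 0.412 for eHGT_082h, 0.417 for eHGT_128h and 0.332 for eHGT_140h. In GABAergic cells, where eHGT_078h did not enter, these medians were -0.308, -0.234, -0.305, -0.315 and -0.422. Those of eHGT_023h were -0.174 over all cells and -0.299 in GABAergic cells, and those of eHGT_058h were -1.23 and 0.339. The part of the GABAergic share in these changes was not tested. For eHGT_023h, eHGT_079h, eHGT_082h, eHGT_128h and eHGT_140h, 0 members passed by limma, beside 1.11%, 4.08%, 3.27%, 11.2% and 12.5% of genes called in either direction. Limma voom on reads recovered from the CPM, added after seeing the data, called 1, 4, 3, 4 and 3 members for these 5 enhancers, all higher, with differences from 0.76 to 1.47. Averaging logs over cells called 1, 2, 1, 3 and 0, of which Dlx6os1 for eHGT_023h was lower (-1.51, adjusted p = 0.0434). Several of the calls on mean CPM depended on 1 mouse: Dlx5 for eHGT_017h without replicate 2 (0.78, adjusted p = 0.0932), Dlx5 for eHGT_019h without replicate 1 (0.80, adjusted p = 0.0506), Dlx6 for eHGT_017h without any of its mice (0.67 to 0.78), Dlx6 for eHGT_019h without any of its mice, eHGT_082h replicate 1 or eHGT_128h replicate 1 (0.43 to 0.70), Dlx6 for hDLXI56i without replicate 2 (0.77, adjusted p = 0.104), Dlx5 for eHGT_064h without replicate 2 (0.75) or 4 (0.68), and Dlx1as (-0.93 and -0.98) and Dlx6os1 (-0.64 and -0.68) for eHGT_058h without replicate 2 or 3. Dlx1as for eHGT_058h was lost in 20 of the 33 fits that left out 1 mouse. Without the cell of 833 reads, the Dlx1as difference of eHGT_019h was 1.45 (adjusted p = 0.00165), against 2.46 with it, and Dlx1as also passed for hDLXI56i (1.16, adjusted p = 0.0225).

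A direct comparison asked whether cells lit by hDLXI56i differ in DLX levels from cells of the same class lit by other enhancers. It was possible for Pvalb cells in 20 mice, Sst cells in 11 and Lamp5 cells in 6, with eHGT_019h as the only other enhancer for the last. In Pvalb cells, Dlx5 had 64.1, 95.1 and 68.6 CPM in hDLXI56i mice, against 40.1 to 82.5 CPM in mice of the other enhancers. Dlx6os1 had 99.8, 117.96 and 119.97 CPM in Pvalb cells of hDLXI56i mice and 66.9 to 136.8 CPM in those of the others, so both overlapped. No member passed in Pvalb cells, beside 12.9% of 16424 genes called in either direction. None passed in Sst cells, beside 0.0740% of 16221 genes, and none in Lamp5 cells, beside 0% of 15346 genes. For Lamp5 cells limma called 0 genes with 805 at an unadjusted p under 0.05, and limma voom on reads recovered from the CPM called 0 as well.

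The 18 within-class differences ran from -0.16 to 0.85 on the log2 scale, 16 of them positive. The widest were Dlx6os1 in Sst cells, at 0.85 (95% interval 0.10 to 1.60, adjusted p = 0.337), and Dlx1 in Sst cells, at 0.64 (95% interval 0.04 to 1.24, adjusted p = 0.36). Closest to the threshold was Dlx2 in Pvalb cells, at 0.54 (95% interval 0.11 to 0.96, adjusted p = 0.0862), and it passed without replicate 1 of eHGT_064h (0.57, adjusted p = 0.0382). In Lamp5 cells Dlx6os1 differed by 0.03 (95% interval -0.50 to 0.57). The intervals leave room for differences of up to 1.60, so these cells are not shown to be alike. In all GABAergic cells Dlx6os1 was higher in hDLXI56i by 1.18, and within Pvalb, Sst and Lamp5 cells the differences were 0.35, 0.85 and 0.03. The enhancers set against hDLXI56i differ between these fits, with eHGT_019h alone for Lamp5 cells, so these values cannot be compared directly.

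**Figure D5:**
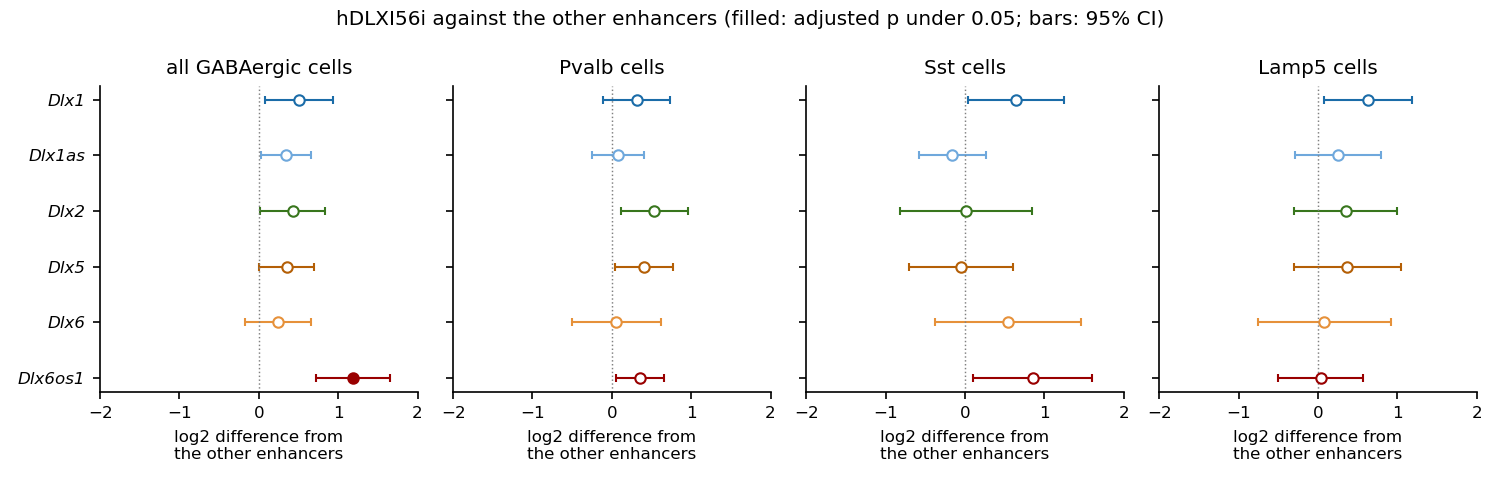
Log2 difference of each member between hDLXI56i and the mean of the other enhancers, with 95% confidence intervals, in all GABAergic cells and within Pvalb, Sst and Lamp5 cells. Filled points passed an adjusted p of 0.05. The only filled point is Dlx6os1 in all GABAergic cells, at 1.18. The other enhancers are not the same set in each panel.

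Which other genes moved like the members was read from Pearson's r over the 30 mice, in log2(mean CPM + 1) of GABAergic cells, where the mice of an enhancer share its mix of classes. Nearest to Dlx6os1 were Zbtb16 (r = 0.954), Kcnn2 (r = 0.940) and Hdac9 (r = 0.939). Dlx1 was nearest to Zbtb20 (r = 0.882), Gabbr1 (r = 0.879) and Rac1 (r = 0.875), and Dlx1as to Fstl4 (r = 0.864), Zbtb16 (r = 0.828) and Rassf2 (r = 0.824). For Dlx2 they were Lppr3 (r = 0.847), Basp1 (r = 0.815) and Gabbr1 (r = 0.798). Dlx5 and Dlx6 had weaker partners, Ppdpf (r = 0.753), Rp9 (r = 0.730) and Taf10 (r = 0.684) for Dlx5 and Pcnx (r = 0.680), Elavl1 (r = 0.653) and Dtx3 (r = 0.644) for Dlx6. Among members, Dlx1 and Dlx2 went together (r = 0.893) and Dlx6os1 with Dlx1as (r = 0.799), while Dlx5 and Dlx6 had an r of 0.0728. Dlx6 averaged 9.14 CPM in GABAergic cells, a few reads a cell, which limits what its correlations can show. Between single cells of a class, Dlx5 and Dlx6 had Spearman correlations of 0.22 in Sst, 0.19 in Vip, 0.10 in Lamp5 and 0.07 in Pvalb cells.

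Over all cells of the 33 mice, where the GABAergic share dominates, the nearest genes were Sox2ot (r = 0.962), Klhl13 (r = 0.949) and Sox2 (r = 0.948) for Dlx1 and Sox2 (r = 0.958), Sox2ot (r = 0.958) and Sox1 (r = 0.956) for Dlx2. Those of Dlx5 were Slc32a1 (r = 0.976), the vesicular GABA transporter gene, Gm14204 (r = 0.9747) and Sox2 (r = 0.974), and those of Dlx6 were A530058N18Rik (r = 0.957), Afap1 (r = 0.953) and Kcnmb2 (r = 0.952). Dlx1as, without the cell of 833 reads (an alternative added after seeing the data), was nearest to Gad2 (r = 0.971), Nxph1 (r = 0.970) and Kcnip1 (r = 0.969), and with that cell to Gad2 (r = 0.941), Zfp536 (r = 0.930) and Klhl13 (r = 0.930). Those of Dlx6os1 were Dner (r = 0.959), Zfp536 (r = 0.956) and Sox2ot (r = 0.944). Between single cells of a class, the 15 pairs of members had Spearman correlations with medians from -0.01 to 0.06, and the lowest was -0.45 between Dlx1 and Dlx1as in 50 Vip cells. The pair shared libraries, depth and exon bases, and values of single cells rest on few reads.

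The wider program was read from 30 genes that act upstream of, beside or downstream of DLX factors in interneuron development, of which 25 passed the filter on low values over the classes. In Vip cells 5 were higher and 5 lower, in Lamp5 cells 4 and 7, in Sst cells 10 and 7 and in Pvalb cells 6 and 5. Of all genes tested, 4.88% were higher and 8.50% lower in Vip cells, 8.39% and 5.27% in Lamp5 cells, 7.32% and 6.16% in Sst cells, and 10.2% and 7.61% in Pvalb cells. Prox1, a factor of caudal-born interneurons, was higher by 5.20 in Vip cells and by 3.82 in Lamp5 cells, and lower by -4.52 in Sst cells and by -4.50 in Pvalb cells. Sox6, which acts in medial-born interneurons after Lhx6, was higher by 4.61 in Sst cells and by 4.84 in Pvalb cells, and lower by -4.74 in Vip cells and by -4.71 in Lamp5 cells. The median difference over the 25 lay between -0.41, in Vip cells, and 0.09, in Sst cells.

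Between Lhx6 and Adarb2 cells, 23 of the 30 were tested, 6 higher and 4 lower in Lhx6 cells, beside 5.81% and 4.53% of all genes. Sox6 was higher by 7.04, Satb1, a chromatin organiser of Sst and Pvalb interneurons, by 5.83, and Prox1 was lower by -6.71. Lhx6 itself set the groups. In GABAergic against glutamatergic cells, 14 of 23 were higher, Gad1 and Gad2 that set the groups among them, and 4 lower, beside 12.1% and 17.3% of all genes. Among the higher were Erbb4, the neuregulin receptor of interneurons, by 7.44 and Lhx6 by 6.88, with a median of 2.51 over the list beside -0.10 over all genes. In GABAergic cells of hDLXI56i, 5 of 25 were higher and 1 lower, beside 5.70% and 3.22% of all genes. Prox1 was higher by 2.62 there, Nrp2, a semaphorin receptor of migrating interneurons that DLX factors repress in mouse embryos, by 1.68, and Sp8, a factor of caudal-born interneurons, by 1.52.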

How the data were processed

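Polyadenylated RNA of single sorted cells was sequenced by SMART-Seq v4. The deposited table holds CPM, each cell summing to 1000000, and STAR and the mm10 build are named in the submitters' processing notes; the counting annotation is not given there. At the depth of each cell, 100% of values were whole reads within 0.01, and cells held 833 to 1018507 reads (median 586338), so 1 read in a median cell is 1.71 CPM. Cells were grouped by marker thresholds (10 CPM for transmitter and lineage genes, 100 CPM for class markers), and CPM was averaged per mouse and group over at least 5 cells. Mice were the replicates. Limma 3.58.1 in R 4.3.3 was fitted with trend and robust variance on log2(mean CPM + 1), over genes with at least 1 CPM in 2 values, with Benjamini-Hochberg adjustment over all genes per contrast and an adjusted p of 0.05 as the threshold. A contrast is 1 group minus the unweighted mean of the others. The mouse is a block for comparisons within mice, since those cells share an animal. Differences on this scale understate changes of low genes. The exact tests were 2-sided sign-flip permutation tests. Named genes were the 6 members, up to 4 called genes of the linked list with the largest difference per contrast, and the 3 genes with the highest Pearson correlation to each member, at a mean of 5 CPM or more. The members and lists were chosen with earlier results of these data known. The fits were tested on simulated data for eHGT_128h over all cells and for Pvalb cells by class only. The noise was independent, with no mouse effect. Of 100 genes changed by 1.5 on the log2 scale, 97 were recovered for eHGT_128h and 84 for Pvalb cells. The other contrasts, that of Vip cells included, were not simulated. The planned count test was not run, and limma voom on recovered reads was added. The library prefix letter (G in 24 mice, J in 9) was tried as a covariate.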

Additional observations from a re-analysis of the deposited data

Results flagged for a closer look

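Of 42 groups of 4 to 10 mice checked for a value far from the others, 2 held one, and chance gives about 1 in 20. Dlx2 in Vip cells stood at 58.4 CPM in eHGT_017h replicate 3, and the 3 other mice lay between 82.6 and 87.2 CPM. The Dlx6os1 difference between Lhx6 and Adarb2 cells was -3.71 on the log2 scale in eHGT_017h replicate 2, and the 6 other mice lay between -2.64 and -2.05. Without that mouse all 4 members called in that comparison passed again.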

How the results depend on the processing

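Of 180 member differences, 57 passed the threshold, and 0 changed sign while called under any alternative run. Over all alternatives the called ones kept the call 1891 times and lost it 86 times. Those that had missed it gained a call 74 times. Over all cells, limma voom on recovered reads, added after seeing the data, gave 47 member calls, against 29. In GABAergic cells by enhancer, a required log2 difference of 1 left 5 of 8 calls, and averaging logs over cells also gave 5. Between Lhx6 and Adarb2 cells, a required log2 difference of 1 left 1 of 4. With 1 mouse left out, calls numbered 26 to 34 over all cells, 7 to 10 in GABAergic cells, 10 to 11 by class, 4 by lineage, 6 by transmitter and 0 to 1 within a class for hDLXI56i. Without the replicate block, where each mouse is its own block because its cells share the animal, there were 12 calls by class against 10, 3 by lineage against 4 and 6 by transmitter against 6. Averaging logs over cells ended the Pvalb calls of Dlx1as (-0.60) and Dlx2 (-0.78). Over all cells, leaving out eHGT_078h replicate 3 gave 34 calls, and Dlx6 for eHGT_082h passed without any 1 of 6 mice. The cause was not tested for any of these. The planned edgeR fit was not run. Letter J mice alone gave no fit by class or by lineage, and the letter covariate none within Lamp5 cells. A minimum of 10 cells left no fit within Sst cells. Dlx6 is limited by depth, since 1 read is 1.71 CPM in a median cell. Vip values rest on 4 mice with 6 to 15 cells each.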

Other observations

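The 79 cells that carried both a GABAergic enzyme and Slc17a7 held DLX RNA. The 4 mice with at least 5 such cells held 33 of them. There Dlx6os1 averaged 452 CPM, Dlx1as 124.4 CPM, Dlx1 110 CPM and Dlx5 62.6 CPM. Over all 79 cells the medians were 120.8 CPM for Dlx6os1, 73.4 for Dlx1as, 40.3 for Dlx1 and 63.96 for Dlx5. Only 3 of the 79 had 0 members at 10 CPM or more. In 13 mice with at least 5 cells that carried several class markers, Dlx6os1 averaged 71.3 ± 44.4 CPM and Dlx1as 114 ± 39.8 CPM (SD, n = 13).

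The other family members were almost silent. Dlx3 had 5 reads in 2 cells and Dlx4 39 reads in 3 cells of the whole table, and the non-coding RNA Dlx6os2 averaged 0.529 CPM over all cells.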
